A study of Mus musculus with 7 samples.

Results

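Klk6 and 9 further genes that are found in mature oligodendrocytes (OLs) were followed in the optic nerve of mice lacking fatty acid synthase in the OL lineage. The genes are Klk6, Klk8, Ptgds, Apod, Il33, Car2, Hapln2, Anln, Serpinb1a and Hopx, taken by symbol from the 22880 genes of the deposited table, and all 10 were found once each. Optic nerves came from postnatal day 14 (P14) mice, 4 control (FASN lox/lox) and 3 mutant (olig2cre FASN lox/lox), and both nerves of a mouse made 1 sample. Both genotypes carry floxed Fasn alleles on a C57Bl/6 background, and the mutants alone also carry Cre recombinase driven by the Olig2 promoter, which is active in the OL lineage from progenitors onward. The study's methods name lox/lox or lox/wt mice as controls of this cross, and a floxed line of mixed origin backcrossed to C57Bl/6 at least 3 times. A difference between the groups is therefore one of Cre and of Fasn loss together. Polyadenylated RNA was sequenced, and levels are given as FPKM, in which the reads of a gene are scaled to its length and to the size of the library.

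The OL lineage runs from progenitors through newly formed and myelin-forming cells to mature OLs, which maintain the sheath. Klk6 encodes a secreted serine protease of the kallikrein family and Klk8 another one (neuropsin). Ptgds makes prostaglandin D2 and carries lipids as a lipocalin, and Apod, apolipoprotein D, is a lipocalin as well. Il33 is a nuclear cytokine of the interleukin 1 family, Serpinb1a inhibits neutrophil serine proteases, and Hopx is a small homeodomain protein that does not bind DNA. Car2 is the cytosolic carbonic anhydrase, Hapln2 (Bral1) links hyaluronan to proteoglycans at nodes of Ranvier, and Anln (anillin) organises septins in the myelin sheath and in dividing cells. Several of these genes are also used outside the OL lineage. Ptgds is abundant in the leptomeninges, Hopx is found in astrocytes and Serpinb1a in neutrophils.

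The members were selected on their FPKM in mutant and control samples, with results of the comparison between the genotypes in view. Their differences between genotypes are therefore given as descriptions, with no p-value. The 95% confidence intervals are those of the difference in a fit over all genes, in which the variance of a gene is drawn toward that of the others. They are printed for Klk8, Apod, Car2, Hapln2 and Anln only. How many members passed the threshold of that fit is given only beside the number or share of all genes that did. All 10 members were among the 13866 genes kept for the test, those with 0.5 FPKM or more in 3 or more samples.

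Klk6 and Klk8 lie in the kallikrein cluster of chromosome 7 of GRCm38, on the plus strand and 20.7 kb apart. Klk6 (ENSMUSG00000050063) spans 43824499 to 43832027 and Klk8 (ENSMUSG00000064023) spans 43797577 to 43803822, where it overlaps the noncoding gene 2310002F09Rik on the other strand. Whether the counting used the strand is not given in the sources used here, so reads of that gene cannot be told apart from those of Klk8. Ptgds (chromosome 2, 25466709 to 25470046) and Apod (chromosome 16, 31296192 to 31314808) lie on the minus strand. Sequences upstream of the start of these genes are shown because in each pair, the proteases and the lipocalins, the difference between genotypes was larger in 1 gene than in the other. They are the 250 bases before each start in the RefSeq annotation of GRCm38.p6, which held 11 windows for 8 of the members, Car2 and Serpinb1a not among them. Capitals mark matches to GGGCGG (GC box) or ACAAAG (a SOX core), on either strand.
Klk6, first start, chr7:43824294-43824543, plus strand: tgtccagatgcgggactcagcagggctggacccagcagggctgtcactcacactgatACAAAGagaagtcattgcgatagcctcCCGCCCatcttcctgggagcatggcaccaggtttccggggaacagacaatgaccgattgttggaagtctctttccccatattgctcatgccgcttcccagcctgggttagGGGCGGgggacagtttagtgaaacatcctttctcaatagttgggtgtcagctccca
Klk6, second start, chr7:43825200-43825449, plus strand: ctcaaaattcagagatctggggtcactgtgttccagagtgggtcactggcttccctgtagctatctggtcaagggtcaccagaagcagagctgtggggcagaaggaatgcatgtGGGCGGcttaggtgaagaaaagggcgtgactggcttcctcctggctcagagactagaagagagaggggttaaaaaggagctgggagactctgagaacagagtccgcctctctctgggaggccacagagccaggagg
Klk8, chr7:43797327-43797576, plus strand: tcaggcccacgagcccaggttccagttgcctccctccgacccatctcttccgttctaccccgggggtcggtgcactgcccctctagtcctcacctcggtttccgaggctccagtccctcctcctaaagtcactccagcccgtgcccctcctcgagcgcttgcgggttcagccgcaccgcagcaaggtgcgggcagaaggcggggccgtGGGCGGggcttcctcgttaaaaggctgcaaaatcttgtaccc
Ptgds, chr2:25469750-25469999, minus strand: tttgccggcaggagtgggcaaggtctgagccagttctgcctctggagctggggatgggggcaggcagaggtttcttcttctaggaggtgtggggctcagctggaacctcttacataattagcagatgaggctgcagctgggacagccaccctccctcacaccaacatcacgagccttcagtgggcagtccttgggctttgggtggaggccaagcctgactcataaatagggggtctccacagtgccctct
Apod, chr16:31314809-31315058, minus strand: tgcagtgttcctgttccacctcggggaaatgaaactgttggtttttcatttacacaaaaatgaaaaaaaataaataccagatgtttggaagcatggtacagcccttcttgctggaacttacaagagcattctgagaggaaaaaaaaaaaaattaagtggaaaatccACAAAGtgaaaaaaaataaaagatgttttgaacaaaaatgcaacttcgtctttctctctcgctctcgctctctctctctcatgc
The GC box was present upstream of both starts of Klk6 and of Klk8, and in 32.7% of all 32817 windows. ACAAAG was present once upstream of the first start of Klk6 and once upstream of Apod, and in 16.5% of all windows. Neither motif was present in the window of Ptgds, nor were TATAAA (the TATA box), AGGTCA (a nuclear receptor half-site) or CTGGCAC (a form of the Myrf core). Of the 11 member windows, TATAAA was in both of Il33 (12.4% of all windows), AGGTCA in that of Anln and CTGGCAC in that of Hapln2 (4.19% of all windows). The GC content was 55.2% and 55.6% in the windows of Klk6, 65.2% in that of Klk8, 58.4% in that of Ptgds and 36.4% in that of Apod, with a median of 52.4% over all windows.

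Fasn itself was 210.3, 169.1, 211.1 and 228.3 FPKM in control samples 1 to 4 and 69.3, 50.5 and 49.0 FPKM in mutant samples 1 to 3 (difference of -1.86 in log2(FPKM + 0.5), standard error (SE) 0.138, limma-trend adjusted p = 0.00312). Reads recovered from the normalized counts totalled between 27454479 and 43456294 per sample. The nerve samples held OL and astrocyte RNA, with the myelin gene Mag at 2538 FPKM and Gfap, the intermediate filament of astrocytes, at 1520 FPKM in control nerves, whereas no gene of a list of 8 photoreceptor markers exceeded 1.07 FPKM in any sample. In such bulk samples fewer cells of a type and less RNA per cell cannot be told apart.

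The members covered a wide range of levels. Ptgds was the most abundant in control nerves at 6054 ± 418 FPKM (SD, n = 4), followed by Apod at 840 ± 23.2 FPKM and Car2 at 148 ± 7.13 FPKM. Hapln2 (28.9 ± 4.38 FPKM) and Anln (26.6 ± 2.03 FPKM) came next, and their control ranges overlapped. Hopx had 17.1 ± 2.14 FPKM and Klk6 9.84 ± 1.34 FPKM, with ranges that did not overlap. Serpinb1a (3.58 ± 0.659 FPKM) and Il33 (2.07 ± 0.534 FPKM) overlapped each other, and Klk8 was the lowest at 0.596 ± 0.0950 FPKM. Ptgds alone took between 0.544% and 0.634% of the reads of a control sample.

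**Figure D1:**
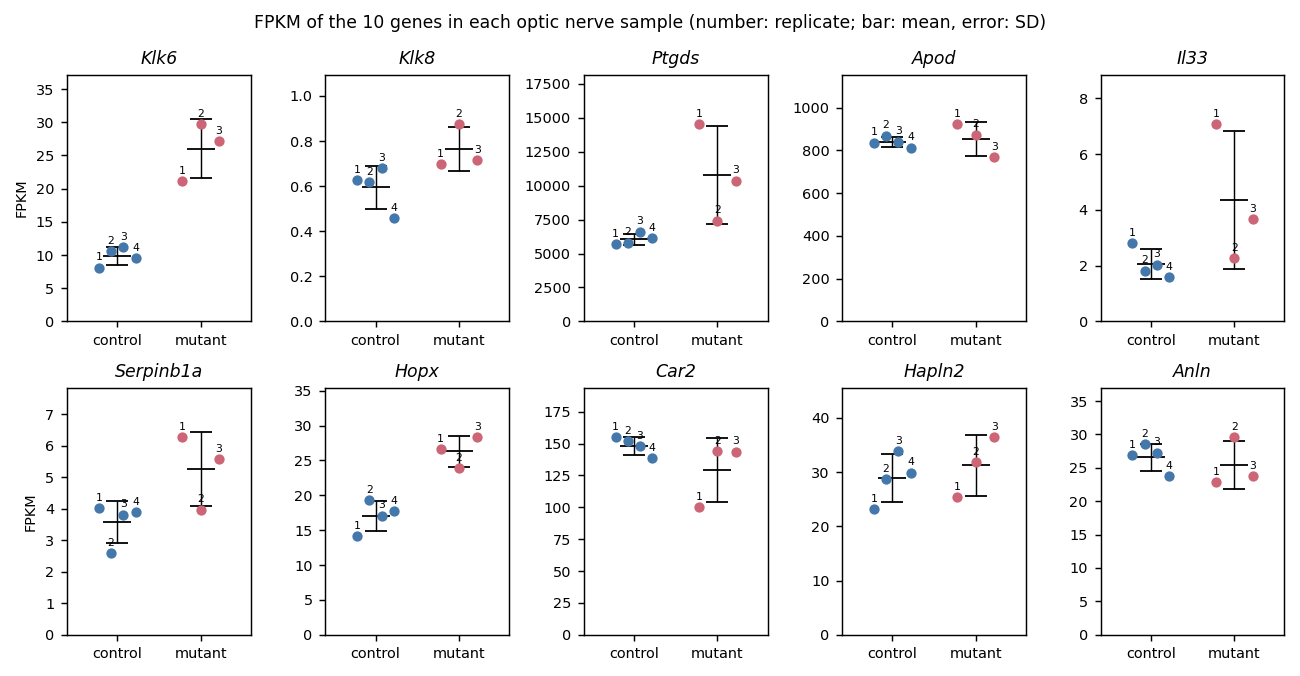
FPKM of each of the 10 genes in 4 control samples (blue) and 3 mutant samples (red), with the replicate number at each point, the mean as a bar and the SD as error, on linear axes that start at 0. For Klk6 the mutant samples sit between 21.2 and 29.8 FPKM and the control samples between 8.12 and 11.2 FPKM, whereas for Apod the groups overlap.

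In mutant nerves Klk6 was higher than in control nerves by more than any other member. The study itself reported higher Klk6 on these same samples. Its level was 8.12, 10.6, 11.2 and 9.51 FPKM in control samples 1 to 4 and 21.2, 29.8 and 27.2 FPKM in mutant samples 1 to 3. Every mutant sample was above every control sample, and mutant sample 1 was the lowest of the 3. The mutant mean was 264% of the control mean, with an SD of 4.39 FPKM over 3 mutant samples. On the scale of log2(FPKM + 0.5) the difference was 1.35 (SE 0.137). With single samples left out it lay between 1.25 (without mutant sample 2) and 1.49 (without mutant sample 1). Between 303 and 495 reads lay behind the value of a control sample and between 759 and 941 behind that of a mutant sample.

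Klk8 was near the limit of what these libraries measured. It had 0.628, 0.616, 0.679 and 0.459 FPKM in control samples 1 to 4 and 0.698, 0.876 and 0.716 FPKM in mutant samples 1 to 3, from 19 to 39 reads per sample. The groups did not overlap, but the lowest mutant sample was barely above the highest control sample, and the difference of 0.21 (SE 0.135) on the log2(FPKM + 0.5) scale carried a 95% confidence interval from -0.10 to 0.51. The table lists 24 other kallikrein genes on chromosome 7. Of these, 13 were listed at 0 in every sample and none of the others exceeded 0.434 FPKM, so that Klk6 was the only kallikrein above 1 FPKM in any sample, control or mutant.

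The lipocalins differed from each other. Ptgds was 5678, 5809, 6619 and 6108 FPKM in control samples 1 to 4 and 14540, 7427 and 10360 FPKM in mutant samples 1 to 3. All mutant samples were above all control samples, but they were far apart, with a coefficient of variation of 33.2% against 6.90% in control nerves. The difference was 0.78 (SE 0.213) on the log2 scale and 0.54 without mutant sample 1. Apod had 836.7, 869.9, 841.8 and 813.3 FPKM in control samples and 924.1, 874.6 and 767.8 FPKM in mutant samples. Here the control samples lay within those of the mutant group at both ends, and the difference of 0.02 (SE 0.0815, 95% confidence interval -0.16 to 0.21) turned to -0.06 with normalized counts in place of FPKM.

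Il33 and Serpinb1a shared the order of the mutant samples with Ptgds. Il33 (chromosome 19, 29925114 to 29960718) was 2.82, 1.83, 2.04 and 1.58 FPKM in control samples and 7.09, 2.28 and 3.67 FPKM in mutant samples. Mutant sample 1 was highest and mutant sample 2 was within the control range. The difference of 0.82 (SE 0.305) fell to 0.43 without mutant sample 1. Serpinb1a (chromosome 13, 32842092 to 32851185) had 4.02, 2.60, 3.81 and 3.89 FPKM in control and 6.27, 3.97 and 5.57 FPKM in mutant samples. Again mutant sample 2 was within the control range, reads may be shared with the near copies Serpinb1b and Serpinb1c, and the difference was 0.49 (SE 0.178). Hopx (chromosome 5, 77086988 to 77115121, minus strand, overlapping the antisense gene Hopxos) had 14.2, 19.3, 17.1 and 17.7 FPKM in control and 26.7, 23.9 and 28.3 FPKM in mutant samples. Its mutant samples were close together and all above the controls, with a difference of 0.61 (SE 0.107) that lay between 0.53 and 0.68 with single samples left out.

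The remaining members, which act in acid-base balance, in the nodal matrix and in the septin scaffold of the sheath, had groups that overlapped. Car2 (chromosome 3, 14886273 to 14900770) was 155, 151.7, 148 and 138.5 FPKM in control and 100.3, 143.9 and 143.7 FPKM in mutant samples. Mutant sample 1 stood below the rest, and the difference of -0.22 (SE 0.123, 95% confidence interval -0.49 to 0.06) was -0.04 without it. Hapln2 (chromosome 3, 88021750 to 88027583) ran from 23.2 to 33.8 FPKM in control and from 25.4 to 36.5 FPKM in mutant samples, a difference of 0.11 (SE 0.145, 95% confidence interval -0.22 to 0.44) that was -0.01 without mutant sample 3. Anln (chromosome 9, 22331214 to 22389206) ran from 23.7 to 28.5 FPKM in control and from 22.9 to 29.6 FPKM in mutant samples, a difference of -0.07 (SE 0.101, 95% confidence interval -0.30 to 0.16) that was -0.18 without mutant sample 2 and about 0 without mutant sample 1. These intervals leave room for changes in either direction.

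**Figure D2:**
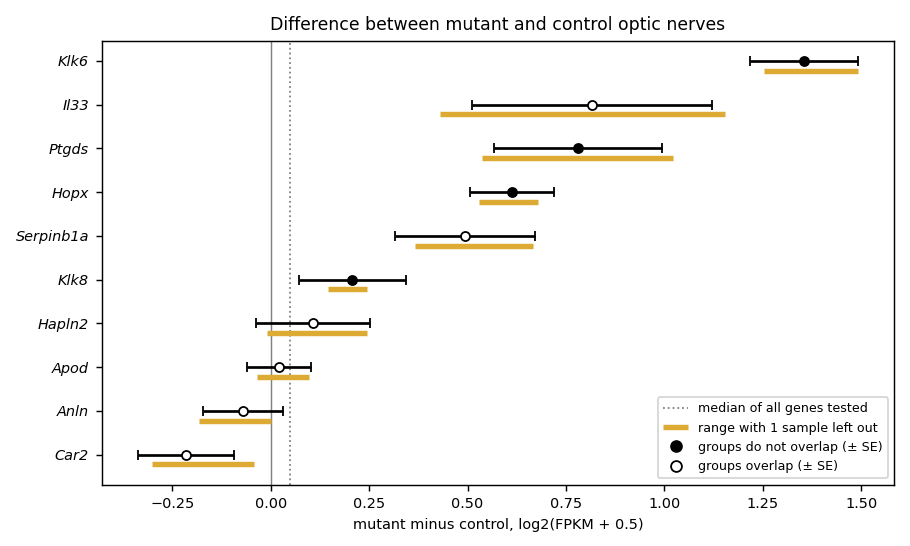
Difference between mutant and control in log2(FPKM + 0.5) for each gene, with its standard error (black) and the range of the difference when each sample was left out in turn (yellow). Filled points mark genes whose groups do not overlap, and Klk6 lies apart at 1.35, with the dotted line at the median of all genes tested (0.05).

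Of the 10 members, 8 had a higher mean in mutant nerves on the log2 scale, against 60.1% of all genes tested, and their median difference was 0.35, against 0.05 over all genes. The groups did not overlap in 4 of them (Klk6, Klk8, Ptgds and Hopx), against 21.1% of all genes (12.9% with the mutant samples higher and 8.26% with them lower). Klk6 and Hopx had an adjusted p under 0.05 in limma-trend, 2 of 10 against 2.62% of all genes (1.26% higher and 1.36% lower in mutant nerves). Nothing can be read from these counts or from how they change below, since the same comparison was known when the genes were chosen. The count of 2 became 0 without mutant sample 3, 1 (Klk6) without mutant sample 1 or any 1 control sample, and 4 without mutant sample 2, when Ptgds and Il33 were added. The count over all 13866 genes moved in the same directions, from 363 to 6 without mutant sample 3, 186 without mutant sample 1, 6 to 117 without 1 control sample and 907 without mutant sample 2. The member count was 3, with Serpinb1a added, when samples of the same number were paired by a replicate block, against 8.36% of all genes in that fit. With normalized counts in place of FPKM 27.8% of the genes past the threshold were higher in mutant nerves, against 48.2% with FPKM.

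Markers of other cell types moved together with some of these genes. Like the members, the lists here and below were chosen with earlier results of these data known. Their counts and p-values are therefore descriptions. Over all genes 2.62% passed the threshold in limma-trend, and 8.36% with the replicate block. All 14 markers of meningeal fibroblasts had a higher mean in mutant nerves, with a median difference of 0.64 that was 0.35 without mutant sample 1, and their summed level was 2106 to 2971 FPKM in control and 2834 to 5444 FPKM in mutant samples. Relative to the control mean, the mean log2 level of this list was 1.19, 0.23 and 0.45 in mutant samples 1, 2 and 3, the same order as for Ptgds, Il33 and Serpinb1a, whereas Klk6 was lowest in mutant sample 1. In control samples 1 to 4 it was 0.25, -0.40, 0.05 and 0.11. Igf2, the most abundant of the list, had 1204 to 1392 FPKM in control and 2669, 1364 and 1700 FPKM in mutant samples. In limma-trend 0 of the 14 passed the adjusted threshold, 10 had an unadjusted p under 0.05, and 10 passed with the replicate block. None of the markers was at 0, and their part in the levels of Ptgds, Il33 and Serpinb1a was not tested.

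Neutrophil markers ran beside Serpinb1a. Their summed level was low, from 3.88 to 36.4 FPKM in control and from 6.91 to 52.8 FPKM in mutant samples, and the mean log2 level of the 7 that passed the filter was 1.27, -0.89 and 1.16 in mutant samples 1 to 3. Their median difference of 0.56 was 0.09 without control sample 2, 0.14 without mutant sample 1, 0.25 without mutant sample 3 and 1.37 without mutant sample 2. Control sample 2 was the lowest of the controls for both this list (-1.31) and Serpinb1a. S100a9, the most abundant, was 18.9, 2.43 and 18.6 FPKM in mutant samples. In limma-trend 0 of the 7 passed the threshold, with 0 at an unadjusted p under 0.05, whereas 4 passed with the replicate block, S100a9 (limma-trend adjusted p = 0.713, 0.0251 with the block and up to 0.979 over all alternatives) among them. Astrocyte markers were higher in every mutant sample, as Klk6 and Hopx were. All 12 had a higher mean in mutant nerves (median difference 0.52), where they summed to 4365 to 5271 FPKM against 3349 to 3868 FPKM in control nerves. Their mean log2 level was 0.36, 0.51 and 0.56 in mutant samples and -0.10 to 0.15 in control samples. Of the 12, 4 passed the threshold, against 2.62% of all genes, or 9 with the replicate block, against 8.36%. The list was lowest of the mutant samples in sample 1, as Klk6 was, whereas Hopx was lowest in sample 2. Among the 4 Aldoc, a glycolytic enzyme of astrocytes, rose by 0.63 on the log2 scale (SE 0.0871, limma-trend adjusted p = 0.0199), and Gja1, connexin 43, by 0.64 (SE 0.0952, limma-trend adjusted p = 0.0214). Neither passed without control sample 1, 2 or 3 or mutant sample 3. Aldh1l1, a folate enzyme, rose by 0.55 (SE 0.0834, limma-trend adjusted p = 0.0214) and was lost without the same samples. No marker of either list was at 0 in every sample, and the part of these cells in the levels of Serpinb1a, Klk6 and Hopx was not tested.

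The lists of further cell types were set beside Car2 and Anln. The 7 markers of red blood cells, which also hold Car2, had mean log2 levels from -0.64 to 0.95 in control samples, the highest being sample 2, and from -0.39 to 0.31 in mutant samples, and summed to 2853 to 12730 FPKM and 3818 to 5600 FPKM. Their median difference of 0.02 ran from -0.21 to 0.43 with single samples left out. The 12 markers of dividing cells, which also hold Anln, had a median difference of -0.09 that was 0.03 without control sample 1 and -0.21 without mutant sample 1. Control sample 1 was the highest at 0.42, with sums of 39.8 to 63.8 FPKM in control and 39.0 to 49.1 FPKM in mutant samples. Endothelial markers (10 genes, median 0.27, or 0.18 without control sample 4) were higher in every mutant sample (0.25 to 0.32) than in any control sample (-0.14 to 0.14), and microglial markers (10 genes, median 0.14) overlapped. In limma-trend 0 genes of these 4 lists passed the threshold. An unadjusted p under 0.05 was found for 0 red blood cell, 1 dividing cell, 5 endothelial and 3 microglial markers, and 2 endothelial and 1 microglial marker passed with the replicate block. None of the markers was at 0 in every sample, and their part in the levels of Car2 and Anln was not tested.

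**Figure D3:**
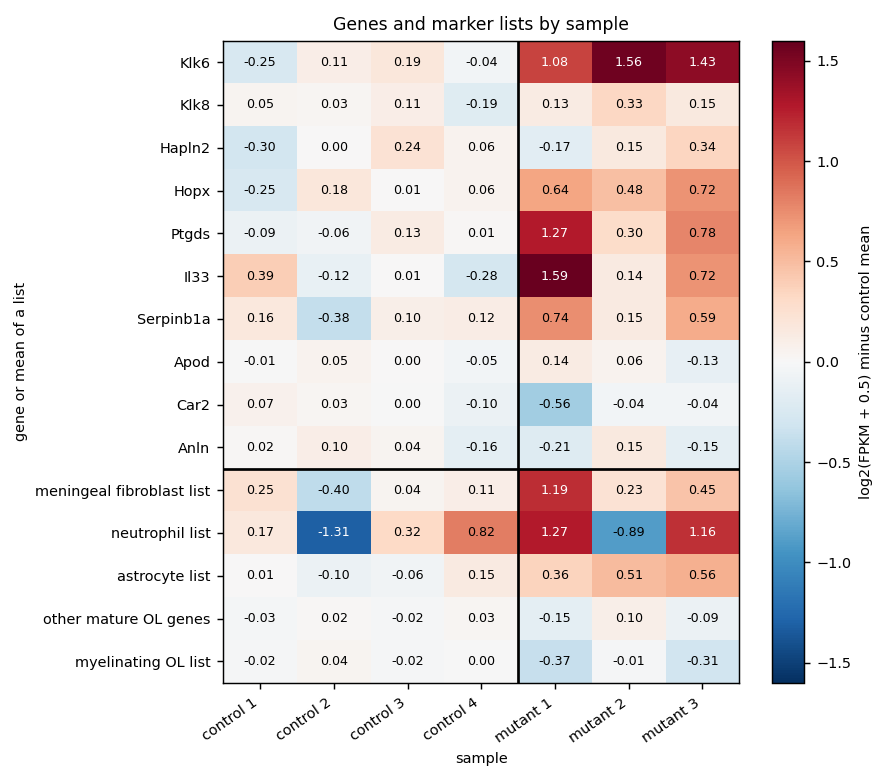
Difference from the control mean in log2(FPKM + 0.5) for each gene (top) and for the mean of each marker list (bottom) in every sample, with red for higher and blue for lower. Mutant sample 1 is highest for Ptgds, Il33, Serpinb1a and the meningeal fibroblast list, and lowest of the mutant samples for Klk6.

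Most other genes of the OL lineage had lower means in mutant nerves. In a list of 20 other genes of mature OLs, 7 had a higher and 13 a lower mean in mutant nerves, with a median difference of -0.17, which was -0.08 without mutant sample 1 and -0.26 without mutant sample 2. Their mean log2 level was -0.15, 0.10 and -0.09 in mutant samples 1 to 3, against -0.03 to 0.03 in control samples, so that mutant sample 2, the highest for Klk6, was above the controls. Pmp22, a membrane protein of peripheral myelin, rose by 0.47 on the log2 scale (SE 0.0846, limma-trend adjusted p = 0.0336), with 93.1 ± 3.27 FPKM in control (SD, n = 4) and 129.5 ± 16.4 FPKM in mutant nerves (SD, n = 3). Sepp1, a selenium transport protein, rose by 0.38 (SE 0.0751, limma-trend adjusted p = 0.0405), from between 685 and 746.9 FPKM in control samples to between 869.2 and 982.3 FPKM in mutant samples. On these same samples the study named Klk6, Sepp1 and Glul among transcripts of mature OLs that were higher in mutant nerves. Gsn, gelsolin, which severs actin filaments, fell by 0.44 (SE 0.0891, limma-trend adjusted p = 0.0437), from between 1366 and 1586 FPKM to between 990.4 and 1119 FPKM. Mobp, a structural myelin protein and the most abundant of the list, had 4543 ± 431 FPKM in control and 3438 ± 542 FPKM in mutant nerves (limma-trend adjusted p = 0.123). With the replicate block Sepp1 (limma-trend adjusted p = 0.0626, and 0.00228 to 0.127 over all alternatives) and Gsn (0.0691, and 4.74e-06 to 0.187) did not pass. Sepp1 was also lost with normalized counts, with samples centred on their medians and with edgeR, and passed in 5 of 15 alternatives. None of Pmp22, Sepp1 and Gsn passed when any 1 control sample or mutant sample 3 was left out, nor did Gsn without mutant sample 1. Without mutant sample 2, 7 of the 20 passed.

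Stage markers of the lineage also had mostly lower means. Among 12 markers of myelin-forming and mature OLs 11 had a lower mean (median -0.22, or -0.35 without mutant sample 2), and Mag, an adhesion protein of the innermost myelin layer, fell by 0.45 on the log2 scale (SE 0.0906, limma-trend adjusted p = 0.0437). Cnp, a phosphodiesterase of the myelin cytoplasm, fell by 0.46 (SE 0.0969, limma-trend adjusted p = 0.0480). Both were lost with the replicate block, Mag with a limma-trend adjusted p = 0.0726 (1.41e-07 to 0.331 over all alternatives) and Cnp with 0.0605 (6.37e-05 to 0.370), with normalized counts, and without any 1 control sample or without mutant sample 1 or 3. Among 9 markers of newly formed OLs 8 had a lower mean (median -0.39) and 3 passed, namely Neu4 (a sialidase, log2 fold change -0.73), Rras2 (a small GTPase, -0.64) and Tmem2 (a hyaluronidase, -0.76), with adjusted p = 0.0276, 0.0327 and 0.0337 in limma-trend. With the replicate block 6 of the 9 passed, against 8.36% of all genes. Among them was Bcas1, the most abundant of the list (limma-trend adjusted p = 0.129, 0.0450 with the block and up to 0.314 over all alternatives). Neu4, Rras2 and Tmem2 were lost without control sample 1, 2 or 3 or mutant sample 3. Neu4 was also lost without control sample 4, and Neu4 and Rras2 without mutant sample 1. The 8 progenitor markers had a median of -0.25, or -0.12 without mutant sample 1, with Cspg4, the NG2 proteoglycan, lower past the threshold (-0.49, SE 0.103, limma-trend adjusted p = 0.0475), a call that was lost whenever 1 sample was left out. The mean log2 level of the newly formed OL markers was -0.45, -0.36 and -0.39 in mutant samples 1 to 3, below all controls. That of the myelin-forming and mature OL markers was -0.37, -0.01 and -0.31, and in mutant sample 2, which had the highest Klk6 level, it lay within the control range of -0.02 to 0.04.

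Genes that work with the members or are related to them were examined as 10 lists, of 114 genes in the table. Of these, 83 passed the filter, with a median difference of 0.17, and 2 passed the threshold (2.41%, against 2.62% of all genes). One was Il18, a cytokine of the same family as Il33, which rose by 0.64 on the log2 scale (SE 0.0967, limma-trend adjusted p = 0.0214). It was 17.1, 15.5, 17.9 and 20.7 FPKM in control samples and 26.5, 27.9 and 29.4 FPKM in mutant samples, and the groups were well apart. The other was Vcan, versican, a hyaluronan-binding proteoglycan of the nodal matrix in which Hapln2 acts. It had 68.0, 62.4, 67.0 and 64.3 FPKM in control samples and 38.3, 45.5 and 50.5 FPKM in mutant samples, lower by 0.55 on the log2 scale (mutant minus control -0.55, SE 0.0908, limma-trend adjusted p = 0.0265). Both calls were lost without control sample 1, 2 or 3 or mutant sample 3, and that of Vcan without control sample 4. The replicate block put 14 partner genes past the threshold (12 higher, 2 lower), and 10 passed without mutant sample 2.

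**Figure D4:**
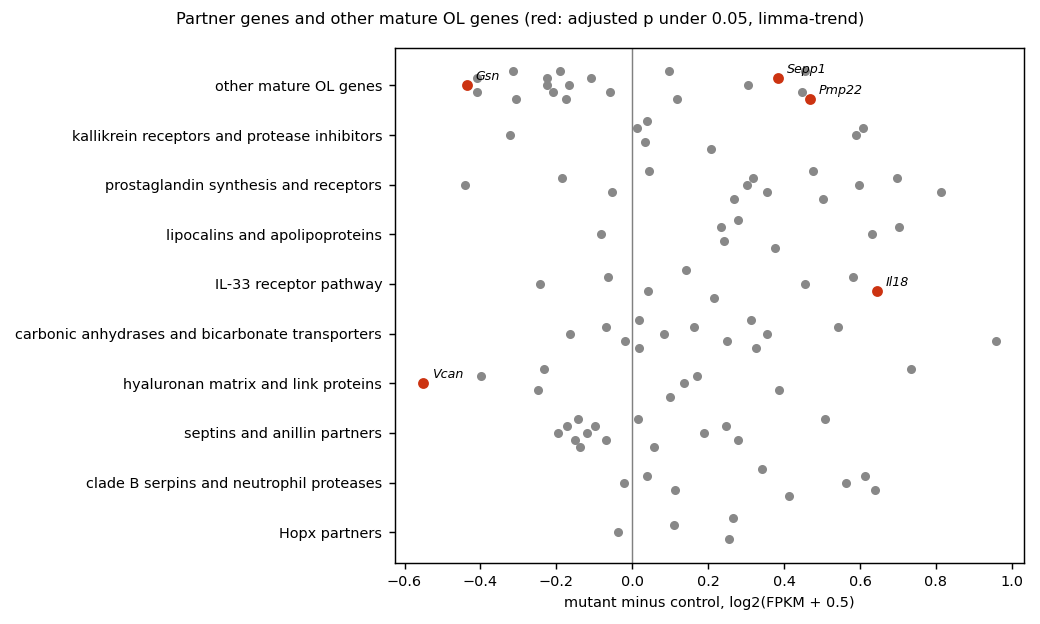
Difference between mutant and control in log2(FPKM + 0.5) for each tested gene of the partner lists and of the list of other mature OL genes, 1 point per gene, with genes past the adjusted threshold in red and named. Il18 and Vcan are the partner genes past the threshold, at 0.64 and -0.55.

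By role, none of the 11 other kallikreins of the list passed the filter. Of 7 tested genes among the protease-activated receptors and protease inhibitors, 6 had a higher mean (median 0.04, or -0.12 without mutant sample 3), with Serpina3n, the most abundant, at 114 ± 14.8 FPKM in control and 132 ± 26.4 FPKM in mutant nerves. Prostaglandin synthesis and receptors had 13 tested genes and a median of 0.32, from -0.44 to 0.81, and their mean log2 level in mutant samples 1 to 3 was 0.52, 0.09 and 0.24, again in the order of Ptgds. Its most abundant gene, the prostaglandin E synthase and co-chaperone Ptges3, had 73.3 ± 5.38 FPKM in control and 64.3 ± 2.39 FPKM in mutant nerves. Among 7 tested lipocalins and apolipoproteins (median 0.28), clusterin (Clu) was the most abundant, with 1014 ± 125 FPKM in control and 1311 ± 101 FPKM in mutant nerves (limma-trend adjusted p = 0.0946).

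The list of the interleukin 33 receptor pathway held 8 genes (median 0.18), with Il18 among them as a relative of Il33. Il1rap, the accessory receptor chain, was the most abundant at 74.2 ± 5.92 FPKM in control and 62.7 ± 5.92 FPKM in mutant nerves. The 13 tested carbonic anhydrases and bicarbonate transporters had a median of 0.16 and included Slc4a4, a sodium bicarbonate transporter of astrocytes, at 114 ± 13.2 FPKM in control and 167 ± 24.6 FPKM in mutant nerves (limma-trend adjusted p = 0.0528, 0.0375 with the replicate block and 0.00327 to 0.183 over all alternatives). Of the 9 tested genes of the hyaluronan matrix (median 0.10, or -0.05 without mutant sample 3), brevican (Bcan) was the most abundant, at 342 ± 30.8 FPKM in control and 289 ± 37.6 FPKM in mutant nerves. The 14 tested septins and anillin partners had a median of -0.08, with Sept4 at 450.1 ± 19.3 FPKM in control and 412 ± 57.9 FPKM in mutant nerves. The 8 tested clade B serpins and their targets had a median of 0.38, and Serpinb6a, the most abundant, had 47.1 ± 4.13 FPKM in control and 59.9 ± 7.82 FPKM in mutant nerves (limma-trend adjusted p = 0.0953, 0.0472 with the replicate block and 0.0410 to 0.246 over all alternatives), though reads may be shared with its near copies. Their mean log2 level was 0.59, 0.08 and 0.34 in mutant samples 1 to 3, in the order of Serpinb1a. The 4 tested partners of Hopx had a median of 0.18, and Hdac2, a histone deacetylase, was at 28.6 ± 1.69 FPKM in control and 27.9 ± 1.03 FPKM in mutant nerves. Their mean log2 level of 0.33, 0.02 and 0.10 in mutant samples 1 to 3 also ran in the order of Serpinb1a, whereas Hopx itself did not. With only 3 mutant samples, a shared order cannot link a list to a gene.

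The genes whose levels ran most closely with a member across all 7 samples, the difference between genotypes included, were sought among 11686 genes with a mean of at least 2 FPKM. For Klk6 these were Pigq, an enzyme of GPI anchor synthesis (Pearson's r = 0.987), Synpr, a synaptic vesicle protein (0.986), Gabarapl1, an autophagy protein, Thoc3, a subunit of an mRNA export complex (0.974), and S1pr1, a receptor for sphingosine 1-phosphate (0.973). Synpr was 1.51 to 2.28 FPKM in control and 4.22, 6.95 and 7.82 FPKM in mutant samples. S1pr1 was at most 33.2 FPKM in control and 40.5, 44.1 and 48.8 FPKM in mutant samples. Each of these genes was lowest of the 3 mutant samples in sample 1, as Klk6 was, except Gabarapl1, which was lowest in sample 3. For Ptgds they were Cldn2, a claudin of tight junctions (r = 0.997), Npr1, a receptor for natriuretic peptides (0.997), Ube2z, a ubiquitin-conjugating enzyme (0.995), H2-Q1, a class I histocompatibility gene with near copies that may share its reads (0.993), and Bsg, basigin (0.988). In all of these mutant sample 1 was highest and mutant sample 2 lowest of the mutant samples, with Cldn2 at 3.98, 1.91 and 2.67 FPKM in mutant samples 1 to 3 and at least 1.29 FPKM in control samples. The correlations describe 7 points that fall into 2 genotypes and share their libraries.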

How the data were processed

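RNA of P14 optic nerves from 4 control and 3 mutant mice was sequenced. Per the labels, reads were aligned with STAR (2.5.1b) to GRCm38 and quantified with RSEM (1.2.22). The authors deposited, for each sample, a normalized count, a signal made by dividing the estimated count of a gene by a size factor whose method is not given in the sources used here, and an FPKM value, scaled for gene length and library size. The authors also deposited gene annotation, with GC content as a fraction, which was used here as a description only, and the fold change, p-value and FDR of their own comparison, which were not used. The study's methods use a count model, but the values are normalized, so limma-trend (limma 3.58.1, R 4.3.3) was run on log2(FPKM + 0.5), for genes with at least 0.5 FPKM in at least 3 samples, with no term besides genotype. P-values were adjusted by Benjamini-Hochberg over all 13866 genes, and 0.05 was the threshold. This scale understates changes of low genes.

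Low normalized counts came in steps, and dividing by the step gave reads, of which 78.8% to 83.6% of values from 0.5 to 10 were whole within 0.1. The rest are the fractions that RSEM gives. Reads were rounded and used for depth and as an alternative in edgeR (4.0.16) and DESeq2 (1.42.0). The fits and the recovery of reads were tested on simulated data. Replicates differed by more than sampling noise. The samples are separate mice, both nerves of each together. Symbols of 13 septins, stored as dates, were restored from their descriptions. Promoter sequences are from RefSeq on GRCm38.p6 and overlaps from GENCODE M21.

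The members and gene lists were chosen with earlier results of these data known. Genes named were Fasn, all members, of each list the genes past the threshold (at most 3 per direction) and the most abundant gene, and for Klk6 and Ptgds the 5 genes most like them. A gene named by this rule is not reported here. A list's mean is that of log2(FPKM + 0.5) relative to the control mean. Samples are numbered within each genotype, and the labels do not say what the number marks. Those of the same number deviated together (r = 0.250, 0.375 and 0.266 across genes over 3 pairs, against -0.357 to 0.087 for other pairs). Deviations were taken from the mean of samples 1 to 3 of each genotype, so the pairs are not independent and cannot show that the samples were paired. A fit with the number as a replicate block was run as an alternative, in which control sample 4 adds nothing to the difference. With 4 against 3 samples, an exact two-sided permutation test of a single gene cannot go below p = 0.0571.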

Additional observations from a re-analysis of the deposited data

Results flagged for a closer look

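The control samples of 78 genes and lists were examined for 1 sample set apart from the other 3, as the gap to the nearest sample divided by the range, and chance sets apart about 1 in 20 such groups. There were 6. Serpinb1a was lowest in control sample 2 (gap 0.853 of the range), as was the list of prostaglandin synthesis and receptors (0.872). Cnp was lowest in control sample 1 (0.842) and Hbb-bs, a globin, was highest in control sample 2 (0.850). The mean of the microglial markers was highest in control sample 4 (0.869), and that of the markers of dividing cells in control sample 1 (0.942).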

How the results depend on the processing

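Results were recomputed under 15 alternatives, of which 7 left out 1 sample. For the 10 members all 150 recomputed differences stayed within 1 SD of the replicates. With these group sizes, leaving out 1 sample cannot move a difference by more than that SD, so those recomputations do not measure stability. The replicate block gave the same differences as leaving out control sample 4. Without mutant sample 1 the difference of Il33 went from 0.82 to 0.43 and that of Car2 from -0.22 to -0.04. Fasn kept its direction and passed in all. The counts past the threshold moved more. Over all genes 363 became 23 without a filter on low values, 1159 with the replicate block, 400 with edgeR and 1683 with DESeq2, and 6 to 907 with 1 sample left out. Of the 363, 48.2% were higher in mutant nerves, against 27.8% of those called with normalized counts. The 2 members, a count that supports nothing since the genes were selected on these values, became 0 without a filter (limma-trend, 2 with an unadjusted p under 0.05, against 5 with the filter) and 4 with DESeq2, against 2 with edgeR, and 0 to 4 with 1 sample left out. The 2 partner genes became 0 without a filter (limma-trend, 30 at an unadjusted p under 0.05, against 33), 14 with the replicate block and 19 with DESeq2, against 3 with edgeR, and 0 to 10 with 1 sample left out. The 3 other genes of mature OLs became 0 without a filter (limma-trend, 6 at an unadjusted p under 0.05, against 9) and 7 with DESeq2, against 2 with edgeR, and 0 to 7 with 1 sample left out. Among Fasn, the members and the genes named from the lists, the replicate block changed the calls of Serpinb1a, Sepp1, Gsn, Mag, Cnp, Slc4a4, Serpinb6a, Bcas1 and S100a9, and no other. The median of the newly formed OL markers was -0.465 with normalized counts and -0.469 with samples centred on their medians. With 1 sample left out it ranged from -0.486 to -0.303, that of progenitor markers from -0.302 to -0.120, that of myelin-forming and mature OL markers from -0.354 to -0.195 and that of microglial markers from 0.086 to 0.252. The cause of these shifts was not tested. Depth limited Klk8, with under 40 reads per sample.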
